A study of Homo sapiens with 28 samples.

Results

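Embryonal carcinoma (EC) lines were compared with embryonic stem (ES) lines in 1 growth condition, a layer of feeder cells. The comparison used 9 of the 14 gene-level arrays of the series, which were the 3 EC arrays labelled feeder-grown and all 6 ES arrays, and it covered all 22011 transcript clusters of the Affymetrix Human Exon 1.0 ST array. The EC group held the lines NTERA2, 2102Ep and 833KE (n = 3), and the ES group held H14, Shef5, Shef6, Shef3, H9 and Shef7 (n = 6). All 9 cultures lay on mouse embryo fibroblasts inactivated with mitomycin C, in a knock-out DMEM that held FGF at 4 ng/ml and serum replacement at 10%, and all were sorted by flow cytometry for the surface antigen SSEA3. The same 3 EC lines, with NCCIT and TERA1, were also profiled on plastic in high-glucose DMEM with fetal calf serum, and these 5 arrays are quoted beside a result as levels only. Each array is a different established line, profiled once, so the spread within a group is the spread between lines. The EC lines stand for germ cell tumours by 3 tumour-derived lines, and the sort was for cells of either kind that carry SSEA3.

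EC cells are the stem cells of teratocarcinomas, malignant germ cell tumours, and ES cells come from the inner cell mass of the early embryo. Both kinds keep the pluripotency network around the transcription factors OCT4 (POU5F1), SOX2 and NANOG. Conventional human ES cells are held in a primed state by FGF and activin or nodal signalling, while the naive state of the earlier embryo has its own set of factors. Extra copies of the short arm of chromosome 12 (12p) are the best known chromosome change of germ cell tumours of the testis.

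The labels were checked against the core factors at single exon probesets, because no transcript cluster carried POU5F1, NANOG or SOX2 as its only symbol. At the brighter NANOG probeset the EC lines read from 11.23 to 12.43 and the ES lines from 9.41 to 11.57 on the log2 scale, and at the brightest SOX2 probeset 10.48 to 11.31 and 11.18 to 11.89. The brightest POU5F1 probeset read 9.04, 9.58 and 10.11 in the EC lines and from 7.25 to 9.18 in the ES lines. All 9 lines thus carried signal for each factor, and none of the 12 probesets of these genes passed the test of the group difference. The array medians lay between 6.19 and 6.39, and pairs of arrays correlated across clusters with r from 0.944 to 0.984 (EC with EC 0.955 to 0.966, ES with ES 0.963 to 0.984, EC with ES 0.944 to 0.969). A reference for dim signal came from 220 olfactory receptor genes, of which 95% of the values lay under 4.96. A fold against a level under that value may be understated. Of 26 markers of fibroblasts and extracellular matrix, 0 passed in limma (median log2 difference -0.16). The feeders were mouse cells and the array is human, so this list cannot decide whether feeder RNA was carried over. In these bulk samples, fewer cells with a transcript and less RNA per cell cannot be told apart.

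A minority of clusters passed the test of EC against ES lines, and more of those stood higher in EC. With so few lines, a cluster that did not pass may still differ. At an adjusted p below 0.05 in limma, 504 of 22011 clusters (2.29%) passed, 343 higher in EC (1.56%) and 161 lower (0.731%). Of these, 400 (1.82%) changed at least 2-fold, 271 higher and 129 lower. The values of the 2 groups did not overlap at 1952 clusters (8.87%), 1273 with EC above (5.78%) and 679 with EC below (3.08%). Under quantile normalisation the split was 331 higher and 243 lower, so the share of calls with EC higher fell from 68.1% to 57.7%. The count rested on several single lines, with 167 calls without Shef3, 193 without 2102Ep, 235 without Shef6 and 260 without Shef7. The array codes in the labels split each group, into codes up to 13 (NTERA2, 2102Ep, H14 and Shef5) and codes from 17 (833KE, Shef6, Shef3, H9 and Shef7). With the code as a block 408 clusters passed. The 5 arrays of later code hold 833KE as their only EC line. A fit within them cannot measure the spread between EC lines and describes 833KE against 4 ES lines. Calls within the later codes given further on share this limit. Within the 4 arrays of earlier code limma called 0 clusters; at an unadjusted p below 0.05 there were 2366, where the full set of 9 arrays gave 3875. Over the 14220 genes with a symbol and 1 cluster each, 399 passed (2.81%), 275 higher (1.93%) and 124 lower (0.872%), and the counts of gene lists given further on are read against these shares.

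**Figure D1:**
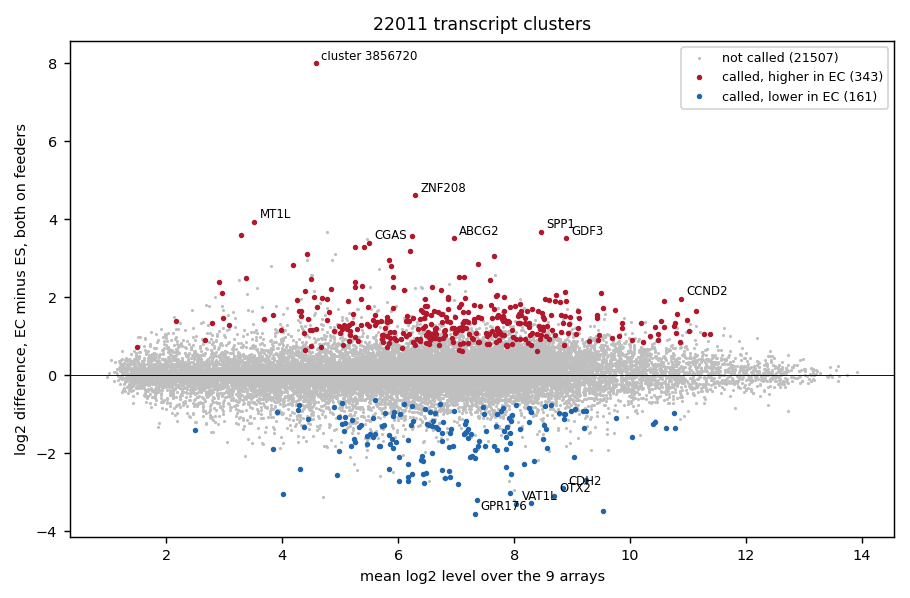
Each point is 1 of 22011 transcript clusters, with its mean log2 level over the 9 arrays on the horizontal axis and the log2 difference of EC minus ES lines, both on feeders, on the vertical axis; red and blue points are the 343 and 161 clusters that passed limma at an adjusted p below 0.05. Cluster 3856720 stands apart at 8.0, far above ZNF208 at 4.62, the highest gene with a single symbol.

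The genes with the largest excess in EC held secreted, surface and DNA-sensing proteins. The 12 genes named at each end were picked among called genes without overlap, so the separation of their groups is part of that choice. SPP1, which encodes the secreted integrin ligand osteopontin, read 10.77 in NTERA2, 11.15 in 2102Ep and 10.81 in 833KE, against 6.16 to 8.43 (median 7.15) in the ES lines. All 3 EC lines stood more than 2 log2 units above the highest ES line, and the difference was 3.67 ± 0.47 (SE; adjusted p = 0.00637), which is 12.7-fold. ABCG2, a pump that exports drugs from cells, read 9.52 in NTERA2, 8.89 in 2102Ep and 9.48 in 833KE in EC, and 4.92 to 6.55 (median 5.88) in ES. Its EC lines were close together and clear of every ES line, 11.4-fold higher on average, at 3.51 ± 0.37 (SE; adjusted p = 0.0027). CGAS, the enzyme that senses DNA in the cytosol, read 7.95 in NTERA2, 7.28 in 2102Ep and 8.07 in 833KE, while the ES lines spanned 3.48 to 5.06 (median 4.49). That is 10.5-fold, or 3.40 ± 0.32 (SE; adjusted p = 0.00155), and 8 of its 9 probesets passed the same test one by one, all with EC higher. All 21 probesets of ABCG2 and all 11 of SPP1 passed too. Other named genes had fewer, with 1 of 5 for MT1L, 1 of 4 for ULBP1 and 3 of 9 for FAM111B. For WNT3, NKX2-5, DSC2, CENPA, SGCE and TM7SF2, named further on, 0 passed in the direction of the gene. Probesets come from the same arrays as the clusters, so they are not independent evidence.

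GDF3, a ligand of the TGF-beta superfamily whose gene lies on 12p, read 11.16 in NTERA2, 11.09 in 2102Ep and 11.45 in 833KE, a narrow range, where the ES lines spread from 5.94 to 9.06 (median 7.69). The difference was 11.3-fold, 3.50 ± 0.59 (SE; adjusted p = 0.0188), and it lost its call without 2102Ep (adjusted p = 0.0622) or 833KE (adjusted p = 0.0536). PLBD1, a phospholipase B-like gene also on 12p, read 9.34 in NTERA2, 10.09 in 2102Ep and 9.62 in 833KE against 5.95 to 7.35 (median 6.74), a difference of 3.04 ± 0.33 (SE; adjusted p = 0.00284). The call of PLBD1 held with each array left out in turn. ULBP1, a surface ligand of the NKG2D receptor of natural killer cells, read 7.82 in NTERA2, 8.46 in 2102Ep and 8.71 in 833KE, and 2.86 to 6.15 (median 5.44) in ES. The lowest ES value came from Shef3, and the difference of 3.18 ± 0.60 (SE; adjusted p = 0.0273) lost its call without 2102Ep (adjusted p = 0.0949), 833KE (adjusted p = 0.0718) or Shef6 (adjusted p = 0.06).

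Among the other genes of this group, IL20RB, a subunit of receptors for the interleukin 20 family, read 3.36 in NTERA2, 5.90 in 2102Ep and 7.78 in 833KE, against 1.68 to 2.83 (median 1.97). NTERA2 lay only just above the ES lines, on plastic NTERA2 and 2102Ep read 2.84 and 2.76, and the difference of 3.60 ± 0.74 (SE; adjusted p = 0.0356) was lost in 7 of 9 fits (adjusted p up to 0.118, without 2102Ep) that left out 1 array. NRK, an X-linked kinase gene, read 6.86 in NTERA2, 9.50 in 2102Ep and 9.48 in 833KE against 4.36 to 5.90 (median 5.07), with NTERA2 again the lowest EC line. Its difference was 3.57 ± 0.57 (SE; adjusted p = 0.0147), lost without 2102Ep (adjusted p = 0.0629). NLRP7, a maternal-effect gene whose mutations cause recurrent hydatidiform moles, read 6.04 in NTERA2, 8.84 in 2102Ep and 7.91 in 833KE against 3.71 to 5.21 (median 4.12). NTERA2 was once more nearest to ES, and the difference of 3.29 ± 0.57 (SE; adjusted p = 0.0196) was lost without 2102Ep (adjusted p = 0.0688), 833KE (adjusted p = 0.0566) or Shef3 (adjusted p = 0.052). MT1L, listed among metallothionein and metal response genes, read 5.35 in NTERA2, 5.77 in 2102Ep and 7.30 in 833KE and 0.89 to 3.80 (median 2.13) in ES, a difference of 3.93 ± 0.62 (SE; adjusted p = 0.014). All ES values of MT1L lay under the dim reference, and its near-identical relatives make its level uncertain. ZNF560, a zinc finger gene, read 7.53 in NTERA2, 7.71 in 2102Ep and 7.11 in 833KE against 2.86 to 5.71 (median 3.76), at 3.29 ± 0.55 (SE; adjusted p = 0.0175), lost without 2102Ep (adjusted p = 0.0688).

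**Figure D2:**
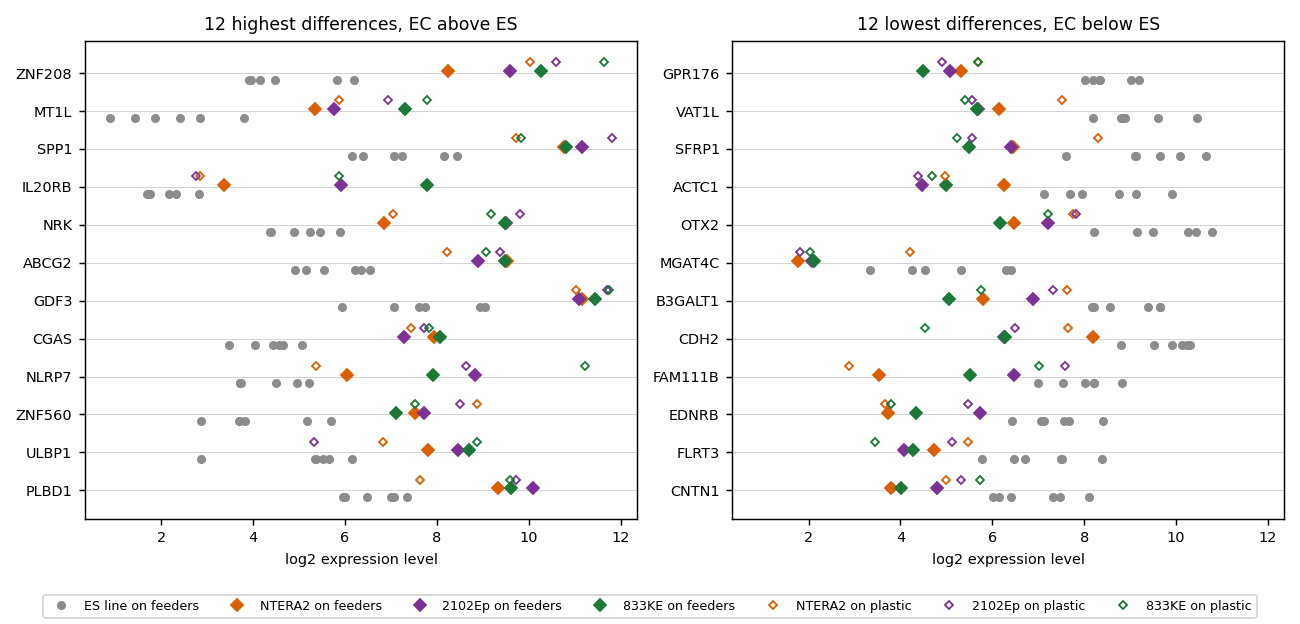
Log2 expression levels of the 12 genes with the highest and the 12 with the lowest difference among genes that passed and had no overlap between EC and ES; grey circles are the 6 ES lines, filled diamonds the 3 EC lines on feeders and open diamonds the same 3 lines on plastic. No filled diamond lies among the grey circles of its gene, and the spread within EC is small for SPP1, GDF3 and MGAT4C and wide for IL20RB and FAM111B.

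The genes with the largest deficit in EC encoded receptors, adhesion proteins and early developmental regulators. GPR176, an orphan G protein-coupled receptor, read 5.31 in NTERA2, 5.08 in 2102Ep and 4.48 in 833KE, against 8.02 to 9.19 (median 8.33) in ES. The 2 groups were separated by more than 2 log2 units, the EC lines were 11.8-fold lower, and the difference was -3.56 ± 0.29 (SE; adjusted p = 8.88e-04). VAT1L, a gene of little known function, read 6.15 in NTERA2, 5.69 in 2102Ep and 5.67 in 833KE against 8.19 to 10.46 (median 8.86), at -3.30 ± 0.42 (SE; adjusted p = 0.00609). B3GALT1, a galactosyltransferase of glycan synthesis, read 5.79 in NTERA2, 6.89 in 2102Ep and 5.05 in 833KE, and the ES lines 8.17 to 9.65 (median 8.98). Its difference was -3.03 ± 0.47 (SE; adjusted p = 0.0121), and these 3 genes kept their call with each array left out in turn.

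The homeobox factor OTX2, which marks the primed state and the anterior epiblast, read 6.48 in NTERA2, 7.22 in 2102Ep and 6.18 in 833KE, against 8.23 to 10.79 (median 9.88) in ES. All EC lines were lower, 8.57-fold on average, -3.10 ± 0.51 (SE; adjusted p = 0.0173), and the call was lost without 833KE (adjusted p = 0.0533). N-cadherin (CDH2), an adhesion molecule of epiblast and mesenchyme, read 8.20 in NTERA2, 6.25 in 2102Ep and 6.28 in 833KE against 8.80 to 10.30 (median 10.02). NTERA2 was the nearest EC line, and the difference of -2.91 ± 0.46 (SE; adjusted p = 0.0147) was lost without 2102Ep (adjusted p = 0.0629). SFRP1, a secreted antagonist of WNT ligands, read 6.45 in NTERA2, 6.40 in 2102Ep and 5.49 in 833KE against 7.62 to 10.66 (median 9.39). Its difference of -3.27 ± 0.56 (SE; adjusted p = 0.0191) was lost without 833KE (adjusted p = 0.0566) or 2102Ep (adjusted p = 0.0558). ACTC1, the cardiac alpha-actin, read 6.26 in NTERA2, 4.47 in 2102Ep and 4.99 in 833KE and 7.13 to 9.92 (median 8.35) in ES, again with NTERA2 nearest. The difference was -3.19 ± 0.59 (SE; adjusted p = 0.0261), lost without 2102Ep (adjusted p = 0.103) or 833KE (adjusted p = 0.0678).

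Among the genes with the lowest differences, EDNRB, the endothelin receptor of neural crest, read 3.73 in NTERA2, 5.74 in 2102Ep and 4.34 in 833KE against 6.42 to 8.42 (median 7.34), a difference of -2.78 ± 0.48 (SE; adjusted p = 0.0195), lost without 833KE (adjusted p = 0.0563). CNTN1, a neuronal adhesion protein, read 3.79 in NTERA2, 4.81 in 2102Ep and 4.02 in 833KE, and the ES lines 6.01 to 8.11 (median 6.86). It differed by -2.71 ± 0.46 (SE; adjusted p = 0.0195), and lost its call without 833KE (adjusted p = 0.0559) or Shef3 (adjusted p = 0.0506). On plastic CNTN1 read 6.50 in NCCIT and 6.99 in TERA1, within the ES range, and from 4.99 to 5.73 in the other EC lines. FLRT3, a leucine-rich transmembrane protein linked to FGF signalling, read 4.72 in NTERA2, 4.07 in 2102Ep and 4.27 in 833KE against 5.78 to 8.40 (median 7.10), at -2.71 ± 0.48 (SE; adjusted p = 0.0214). Leaving out 1 array ended that call in 4 of 9 fits (adjusted p up to 0.0856, without 2102Ep). On plastic NCCIT read 8.25 for EDNRB and 7.68 for FLRT3, within the ES ranges, and the other EC lines at most 6.22 and 5.47. FAM111B, a trypsin-like protease gene, read 3.54 in NTERA2, 6.47 in 2102Ep and 5.52 in 833KE against 6.99 to 8.84 (median 8.11), at -2.79 ± 0.57 (SE; adjusted p = 0.037). On plastic FAM111B read 7.59 in 2102Ep, 7.01 in 833KE and 7.75 in TERA1, within the ES range, but 2.88 in NTERA2 and 5.33 in NCCIT. MGAT4C, of a glycosyltransferase family, read 1.77 in NTERA2, 2.08 in 2102Ep and 2.12 in 833KE against 3.33 to 6.40 (median 4.93), at -3.04 ± 0.61 (SE; adjusted p = 0.0342), with the EC lines under the dim reference. The calls of FAM111B and MGAT4C were lost in 7 of 9 fits (adjusted p up to 0.0853, without Shef6) and 6 of 9 fits (adjusted p up to 0.103, without 2102Ep).

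The pluripotency genes that passed were all higher in EC. Of 22 measured pluripotency factors and markers, 3 rose and 0 fell (median difference 0.26, against 0.05 over all genes, with the sign turned in 1 of 19 alternative settings). Beside GDF3 these were DPPA2, a chromatin factor of the early embryo, and CD9, a tetraspanin of the cell surface. GDF3 and CD9 both lie on 12p, where 32.3% of the measured genes were called. DPPA2 read 7.66 in NTERA2, 9.27 in 2102Ep and 9.51 in 833KE against 5.53 to 7.24 (median 6.29), a difference of 2.52 ± 0.47 (SE; adjusted p = 0.0267). CD9 read 11.58 in NTERA2, 11.96 in 2102Ep and 12.01 in 833KE against 9.31 to 10.79 (median 9.79), a difference of 1.89 ± 0.33 (SE; adjusted p = 0.0202). NTERA2 was the EC line nearest to ES at both genes, although no values overlapped. The call of CD9 was lost without 2102Ep (adjusted p = 0.0769), 833KE (adjusted p = 0.0566) or Shef3 (adjusted p = 0.0517), and that of DPPA2 in 5 of 9 fits (adjusted p up to 0.103, without 2102Ep) without 1 array.

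The naive-state factors that passed were higher in EC, and the primed-state factors that passed were lower. Of 13 naive-state genes, 3 rose and 0 fell (median 0.51). The nuclear receptor NR5A2 read 7.35 in NTERA2, 7.63 in 2102Ep and 8.29 in 833KE against 5.41 to 6.07 (median 5.83), a difference of 1.96 ± 0.24 (SE; adjusted p = 0.0058) that held with each array left out. TFCP2L1, a transcription factor of the naive network, read 6.82 in NTERA2, 8.73 in 2102Ep and 8.41 in 833KE, and the ES lines 5.89 to 6.70 (median 6.30). NTERA2 lay just above the highest ES line, and the call (1.70 ± 0.37 SE, adjusted p = 0.0446) was lost in 8 of 9 fits (adjusted p up to 0.156, without 2102Ep) without 1 array. NLRP7, given above, was the third. On plastic NLRP7 read 4.69 in NCCIT, within the ES range, and from 5.36 to 11.23 in the other EC lines. Of 21 primed-state and early ectoderm genes, 0 rose and 2 fell, OTX2 and CDH2 (median -0.29). Every EC line lay below every ES line at 7 of the 21, against 486 of all 14220 genes. On plastic NCCIT read 10.19 for OTX2 and 9.80 for CDH2, within the ES ranges. The other EC lines on plastic read at most 7.82 and 7.64.

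Signalling genes changed at ligands, antagonists and receptors in both directions. In the nodal, activin and BMP list of 30 genes, 1 rose, the ligand GDF3, and 2 fell (median -0.14). Those 2 encode secreted antagonists. CER1, which binds nodal and BMP ligands, read 8.52 in NTERA2, 7.99 in 2102Ep and 5.83 in 833KE against 9.30 to 10.88 (median 10.28), with 833KE lowest by more than 2 log2 units, and differed by -2.68 ± 0.53 (SE; adjusted p = 0.0327). FST, follistatin, which binds activin, read 7.69 in NTERA2, 6.43 in 2102Ep and 6.48 in 833KE against 8.44 to 9.84 (median 9.07), and differed by -2.21 ± 0.38 (SE; adjusted p = 0.0194). The call of FST was lost without 2102Ep (adjusted p = 0.0787), 833KE (adjusted p = 0.0566) or Shef3 (adjusted p = 0.0509), and that of CER1 in 5 of 9 fits (adjusted p up to 0.077, without Shef6) without 1 array.

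Of 45 genes of WNT signalling, 2 rose and 4 fell (median -0.21). The 2 that rose are ligands. WNT5B, on 12p, read 7.32 in NTERA2, 9.08 in 2102Ep and 8.18 in 833KE against 5.69 to 6.38 (median 5.91), a difference of 2.18 ± 0.33 (SE; adjusted p = 0.0114) that held with each array left out. WNT3 read 7.28 in NTERA2, 7.40 in 2102Ep and 7.30 in 833KE against 6.00 to 6.77 (median 6.40), a smaller difference of 0.92 ± 0.20 (SE; adjusted p = 0.0443), which was also lost under quantile normalisation (adjusted p = 0.0634). The antagonist SFRP1 fell, as did LGR5, an R-spondin receptor and WNT target, at -1.95 ± 0.33 (SE; adjusted p = 0.0183). The receptor FZD4 (-0.95 ± 0.17 SE, adjusted p = 0.0226) and the nuclear effector TCF7L2 (-0.94 ± 0.18 SE, adjusted p = 0.0267) fell by less. LGR5 read 4.17 in NTERA2, 3.52 in 2102Ep and 3.36 in 833KE, against 4.89 to 6.39 (median 5.72), without overlap. Calls were lost without 1 array in 7 of 9 fits (adjusted p up to 0.139, without 2102Ep) for WNT3, 2 of 9 fits (adjusted p up to 0.07, without 2102Ep) for LGR5, 2 of 9 fits (adjusted p up to 0.0901, without 2102Ep) for FZD4 and 3 of 9 fits (adjusted p up to 0.0865, without 2102Ep) for TCF7L2.

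In the FGF and ERK list of 25 genes, 1 rose, ETV5, a transcription factor induced by FGF, and 0 fell (median 0.26). ETV5 read 9.17 in NTERA2, 9.43 in 2102Ep and 9.01 in 833KE against 5.19 to 7.67 (median 7.08), and differed by 2.43 ± 0.46 (SE; adjusted p = 0.0274). Of 24 receptor tyrosine kinases and oncogenes, 1 rose and 3 fell (median 0.05, sign turned in 2 of 19 settings). CCND2, the G1 cyclin D2 on 12p, read 12.01 in NTERA2, 12.32 in 2102Ep and 12.24 in 833KE, against 9.40 to 10.57 (median 10.36), at 1.96 ± 0.24 (SE; adjusted p = 0.00601), a call that held with each array left out. The stem cell factor receptor KIT read 6.59 in NTERA2, 7.14 in 2102Ep and 6.04 in 833KE against 7.51 to 8.96 (median 8.65), and fell at -1.90 ± 0.34 (SE; adjusted p = 0.0212). On plastic KIT read 8.69 in NTERA2, 7.60 in 2102Ep and 7.91 in TERA1, within the ES range, but 6.71 in 833KE and 6.42 in NCCIT. The VEGF receptor FLT1 fell more, at -2.60 ± 0.50 (SE; adjusted p = 0.0293), and ERBB2 less, at -1.35 ± 0.27 (SE; adjusted p = 0.0322). Without 1 array the call was lost for ETV5 in 5 of 9 fits (adjusted p up to 0.101, without 2102Ep), KIT in 3 of 9 fits (adjusted p up to 0.0616, without 833KE), FLT1 in 4 of 9 fits (adjusted p up to 0.0995, without 2102Ep) and ERBB2 in 5 of 9 fits (adjusted p up to 0.083, without 833KE).

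Cytokine and retinoid genes gave 3 further calls. Of 21 cytokine receptors and JAK-STAT genes, 2 rose and 0 fell (median 0.34, sign turned in 1 setting). IL6R, the interleukin 6 receptor, read 7.61 in NTERA2, 6.80 in 2102Ep and 7.18 in 833KE against a tight 6.14 to 6.27 (median 6.17) in ES, and differed by 1.01 ± 0.17 (SE; adjusted p = 0.0196), lost without Shef3 (adjusted p = 0.0549). The other was IL20RB. Of 19 genes of retinoic acid metabolism and response, 1 fell, CYP26A1, the enzyme that degrades retinoic acid (median 0.01, sign turned in 9 settings). CYP26A1 read 5.81 in NTERA2, 5.42 in 2102Ep and 6.29 in 833KE against 7.13 to 8.93 (median 7.76), differed by -2.11 ± 0.36 (SE; adjusted p = 0.0196), and lost its call without 2102Ep (adjusted p = 0.0808) or Shef3 (adjusted p = 0.0509).

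Few markers of differentiated lineages passed, and all but 1 of those were lower in EC. Of 17 endoderm markers, 0 rose and 2 fell, and 16 had a difference below 0 (median -0.49). These were CER1 and the chemokine receptor CXCR4 (-1.33 ± 0.26 SE, adjusted p = 0.0318; lost in 6 of 9 fits (adjusted p up to 0.117, without 2102Ep) without 1 array). Of 22 mesoderm and muscle markers, ACTC1 fell and the cardiac homeobox gene NKX2-5 rose (median -0.23). NKX2-5 read 6.95 in NTERA2, 7.26 in 2102Ep and 6.75 in 833KE against 5.67 to 6.31 (median 6.10), differed by 0.93 ± 0.18 (SE; adjusted p = 0.0285) and lost its call in 4 of 9 fits (adjusted p up to 0.106, without 2102Ep). Of 14 neural markers 0 passed, although 12 had a difference below 0 (median -0.47). The smallest p values there belonged to the neuronal microtubule protein DCX, at -1.12 (adjusted p = 0.0781), and STMN2, at -1.23 (adjusted p = 0.132). Of 18 trophoblast and amnion markers 0 passed (median -0.02, sign turned in 2 settings). GABRP read 5.61 in NTERA2, 7.90 in 2102Ep and 7.39 in 833KE against 4.81 to 6.02 (median 5.34), a difference of 1.63 (adjusted p = 0.0858), and TFAP2A differed by -1.04 (adjusted p = 0.174).

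The germline genes that passed were higher in EC. Of 20 germline and meiosis genes, 2 rose and 0 fell (median 0.28). All EC lines lay above all ES lines at 5 of them, against 959 of all 14220 genes. TDRD5, a tudor protein of piRNA defence, read 6.19 in NTERA2, 5.94 in 2102Ep and 5.88 in 833KE against 3.53 to 4.44 (median 4.00), a difference of 1.99 ± 0.20 (SE; adjusted p = 0.00182). PIWIL1, which binds piRNAs, read 4.55 in NTERA2, 4.31 in 2102Ep and 5.07 in 833KE against 2.98 to 3.34 (median 3.21), at 1.45 ± 0.18 (SE; adjusted p = 0.0058), with most values near or under the dim reference. Both held with each array left out, although PIWIL1 averaged 3.39 in the EC lines on plastic, close to the ES mean of 3.19. Of 10 cancer-testis antigens 1 rose, CTCFL, a germline relative of the insulator protein CTCF (median 0.41). CTCFL read 6.92 in NTERA2, 6.40 in 2102Ep and 7.39 in 833KE against 4.08 to 5.46 (median 4.51), at 2.28 ± 0.32 (SE; adjusted p = 0.00829), and lost its call within the later array codes (adjusted p = 0.0559).

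**Figure D3:**
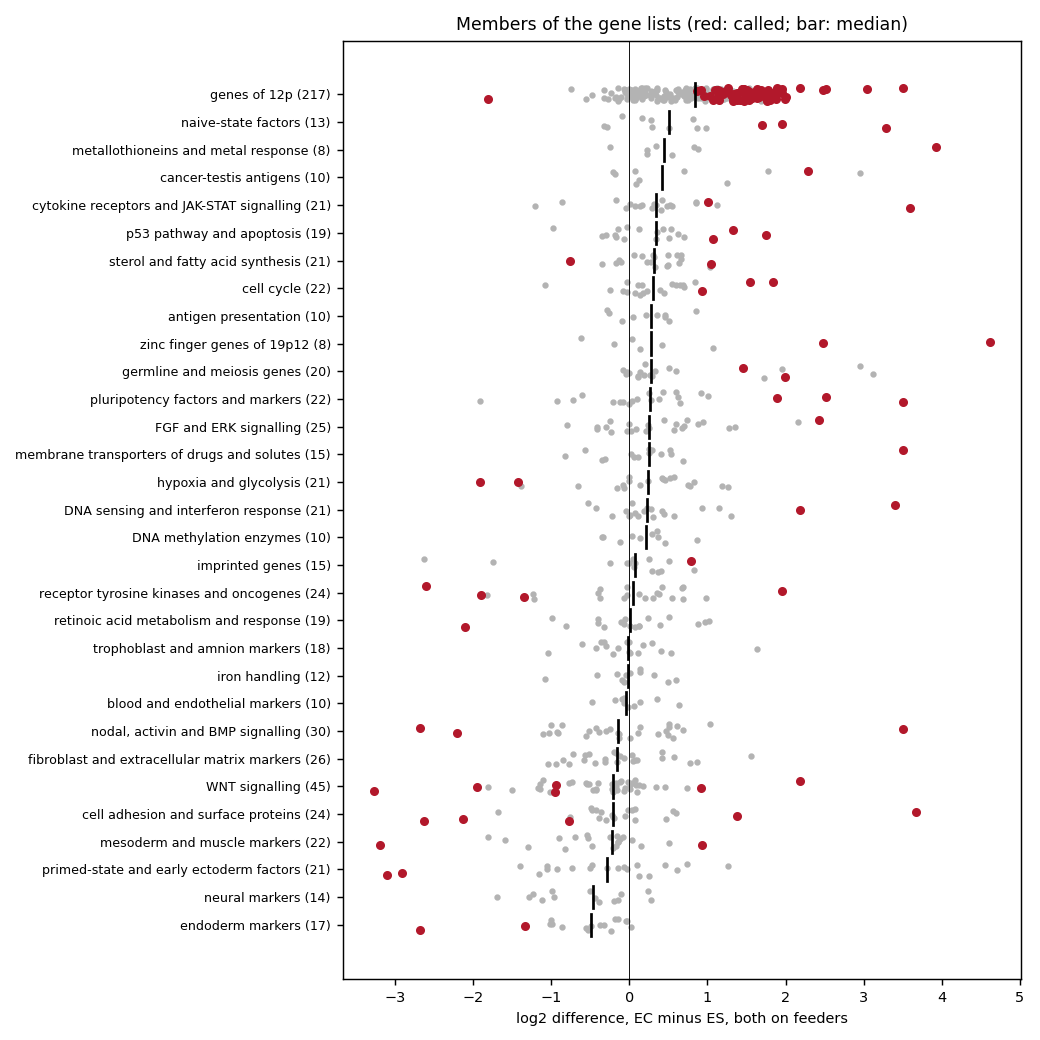
Log2 difference of EC minus ES lines on feeders (horizontal axis) for every measured gene of 31 lists (vertical axis, number measured in brackets); red points passed limma at an adjusted p below 0.05 and the black bar is the list's median. The median of 12p genes lies at 0.84, that of no other list above 0.51, and endoderm and neural markers have the lowest, -0.49 and -0.47.

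Cell surface and adhesion genes changed both ways. Of 24 measured, 2 rose, SPP1 and MCAM, and 3 fell, CDH6, ALCAM and DSC2 (median -0.21). The adhesion receptor MCAM read 7.19 in NTERA2, 8.36 in 2102Ep and 7.72 in 833KE against 6.02 to 6.89 (median 6.21), a difference of 1.38 ± 0.29 (SE; adjusted p = 0.0376). CDH6, a cadherin, read 4.96 in NTERA2, 5.01 in 2102Ep and 5.19 in 833KE against 6.35 to 9.37 (median 7.54), at -2.63 ± 0.55 (SE; adjusted p = 0.0393). ALCAM, of the immunoglobulin superfamily, read 6.61 in NTERA2, 5.43 in 2102Ep and 5.68 in 833KE against 6.98 to 8.63 (median 8.14), at -2.12 ± 0.37 (SE; adjusted p = 0.0196), and the desmosomal cadherin DSC2 fell by less, at -0.78 ± 0.17 (SE; adjusted p = 0.0476). Without 1 array, calls were lost in 6 of 9 fits (adjusted p up to 0.129, without 2102Ep) for MCAM, 6 of 9 fits (adjusted p up to 0.121, without 2102Ep) for CDH6, 3 of 9 fits (adjusted p up to 0.08, without 2102Ep) for ALCAM and 7 of 9 fits (adjusted p up to 0.139, without 2102Ep) for DSC2. Of 15 membrane transporters, ABCG2 rose and 0 fell (median 0.25).

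Of 21 genes of DNA sensing and the interferon response, 2 rose and 0 fell (median 0.22). The EC lines lay above the ES lines without overlap at 6 of them, against 959 of all 14220 genes. Both called genes encode DNA sensors. IFI16, a nuclear sensor, read 8.24 in NTERA2, 8.0 in 2102Ep and 6.45 in 833KE, against 5.12 to 5.82 (median 5.33), and differed by 2.18 ± 0.35 (SE; adjusted p = 0.0147). 833KE was the nearest, the call was lost without 2102Ep (adjusted p = 0.064), and within the later codes, whose 1 EC line is 833KE, the difference was 1.05 (adjusted p = 0.163). Of 10 genes of antigen presentation 0 passed (median 0.28), with HLA-E at 0.45 (adjusted p = 0.249) and TAP2 at 0.51 (adjusted p = 0.25).

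Cell cycle and p53 genes that passed were all higher in EC. Of 22 cell cycle genes, 3 rose and 0 fell (median 0.31). CDKN1B, the CDK inhibitor p27 on 12p, read 8.42 in NTERA2, 8.36 in 2102Ep and 8.12 in 833KE against 6.18 to 6.65 (median 6.56), a difference of 1.83 ± 0.16 (SE; adjusted p = 0.00114) that held with each array left out. FOXM1, a transcription factor of G2 and mitosis also on 12p, read 10.63 in NTERA2, 10.94 in 2102Ep and 9.79 in 833KE against 8.59 to 9.30 (median 8.86), at 1.54 ± 0.27 (SE; adjusted p = 0.0196), and lost its call without 2102Ep (adjusted p = 0.0757) or Shef3 (adjusted p = 0.0541). The centromere histone CENPA rose by less, 0.93 ± 0.18 (SE; adjusted p = 0.0283), lost in 6 of 9 fits (adjusted p up to 0.0718, without 833KE) and under quantile normalisation (adjusted p = 0.0507). Of 19 genes of the p53 pathway and apoptosis, 3 rose and 0 fell (median 0.34, sign turned in 1 setting). TIGAR, a regulator of glycolysis on 12p, read 8.40 in NTERA2, 9.33 in 2102Ep and 9.55 in 833KE against 7.02 to 7.58 (median 7.38), at 1.75 ± 0.25 (SE; adjusted p = 0.00875). GADD45A, induced by DNA damage, read 9.10 in NTERA2, 8.51 in 2102Ep and 9.34 in 833KE against 7.43 to 7.98 (median 7.62), at 1.33 ± 0.21 (SE; adjusted p = 0.0126), and the stress sensor SESN2 differed by 1.08 ± 0.21 (SE; adjusted p = 0.0314). TIGAR and GADD45A held with each array left out, and SESN2 was lost in 6 of 9 fits (adjusted p up to 0.117, without 2102Ep).

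Metabolic and epigenetic lists held few calls. Of 21 hypoxia and glycolysis genes 2 fell and 0 rose (median 0.24). EGLN3, an oxygen-sensing prolyl hydroxylase, read 6.43 in NTERA2, 6.77 in 2102Ep and 6.48 in 833KE against 7.59 to 8.27 (median 8.0), at -1.42 ± 0.18 (SE; adjusted p = 0.00637), and the peptide hormone gene ADM fell at -1.91 ± 0.39 (SE; adjusted p = 0.0351). Of 21 sterol and fatty acid genes EBP rose (1.05 ± 0.22 SE, adjusted p = 0.0362) and TM7SF2 fell (-0.76 ± 0.15 SE, adjusted p = 0.0313), both enzymes of late cholesterol synthesis (median 0.32, sign turned in 1 setting). EGLN3 held with each array left out, while calls were lost in 7 of 9 fits (adjusted p up to 0.0899, without NTERA2) for ADM, 8 of 9 fits (adjusted p up to 0.0901, without 833KE) for EBP and 5 of 9 fits (adjusted p up to 0.103, without 2102Ep) for TM7SF2. MT1L was the only called gene of 8 metallothionein and metal response genes (median 0.44). Of 12 iron genes 0 passed (median -0.02, sign turned in 8 settings), with the ferritin light chain FTL at -1.08 (adjusted p = 0.0756), a direction that only 4 of its 15 probesets shared, and ceruloplasmin (CP) at 0.59 (adjusted p = 0.123). Of 10 DNA methylation enzymes 0 passed (median 0.21, sign turned in 1 setting), with DNMT3A at 0.46 (adjusted p = 0.221) and DNMT3L at 0.86 (adjusted p = 0.366). Of 15 imprinted genes SGCE rose (0.79 ± 0.17 SE, adjusted p = 0.0426; median 0.07, sign turned in 1 setting), a call lost in 8 of 9 fits (adjusted p up to 0.107, without NTERA2). In the fibroblast list the smallest p values were those of CCN1, at -0.73 (adjusted p = 0.11), and COL5A2, at -0.94 (adjusted p = 0.128). Of 10 blood and endothelial markers 0 passed (median -0.04, sign turned in 2 settings), with PECAM1 at 0.64 (adjusted p = 0.409) and CDH5 at 0.35 (adjusted p = 0.457).

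The zinc finger genes of 19p12 held the highest difference of any named gene. These genes encode KRAB zinc finger proteins, many of which bind and silence transposable elements, and they arose by local duplication. Only 8 of 34 listed genes had a cluster with a single symbol, and of these ZNF208 and ZNF99 rose and 0 fell (median 0.28, sign turned in 1 setting). ZNF208 read 8.24 in NTERA2, 9.58 in 2102Ep and 10.26 in 833KE, against 3.91 to 6.19 (median 4.31) in the ES lines. All EC lines lay above all ES lines, with NTERA2 lowest, and the difference was 4.62 ± 0.60 (SE; adjusted p = 0.00637), 24.5-fold. Its call held with each array left out, and 7 of its 8 probesets passed on their own. ZNF99 read 4.12 in NTERA2, 6.60 in 2102Ep and 4.38 in 833KE against 1.98 to 2.89 (median 2.68), with 2102Ep alone above 4.96, and its difference of 2.48 ± 0.48 (SE; adjusted p = 0.0292) was lost without Shef3 (adjusted p = 0.0662), Shef6 (adjusted p = 0.063), Shef7 (adjusted p = 0.0558) or H9 (adjusted p = 0.0528). The other 6 did not pass, with log2 differences of 1.07 for ZNF681, 0.41 for ZNF738, 0.14 for ZNF254, 0.03 for ZNF43, -0.20 for ZNF493 and -0.62 for ZNF675. Because these genes are near copies of each other, probes may read more than 1 of them, and each level is uncertain.

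The 250 bases before the start of ZNF208, and those of ZNF254 and ZNF43, are shown because these near copies gave unlike differences, and because their promoters are alike. The sequences are those of RefSeq on GRCh38.p14 and run 5′ to 3′ on the gene's strand. Capitals mark the CCAAT box, searched as CCAAT on the printed strand and, on the other, as ATTGG. The windows lie at chr19:22010944-22011193 (minus strand) for ZNF208, chr19:24086937-24087186 (plus strand) for ZNF254 and chr19:21836183-21836432 (minus strand) for ZNF43.
ZNF208: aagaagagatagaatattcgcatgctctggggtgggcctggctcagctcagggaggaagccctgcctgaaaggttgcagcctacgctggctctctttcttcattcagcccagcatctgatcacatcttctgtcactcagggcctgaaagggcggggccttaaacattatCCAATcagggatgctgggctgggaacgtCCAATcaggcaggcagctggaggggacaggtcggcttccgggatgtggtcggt
ZNF254: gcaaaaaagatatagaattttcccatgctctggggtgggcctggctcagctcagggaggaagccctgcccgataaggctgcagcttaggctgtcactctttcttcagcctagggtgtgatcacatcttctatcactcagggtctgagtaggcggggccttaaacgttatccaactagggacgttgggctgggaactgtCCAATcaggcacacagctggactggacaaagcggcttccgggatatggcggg
ZNF43: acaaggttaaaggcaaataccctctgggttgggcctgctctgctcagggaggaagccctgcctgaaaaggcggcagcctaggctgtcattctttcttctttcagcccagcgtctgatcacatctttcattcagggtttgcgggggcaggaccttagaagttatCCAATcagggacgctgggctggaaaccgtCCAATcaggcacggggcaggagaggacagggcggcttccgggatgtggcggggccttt
In a global alignment with ZNF208, the ZNF254 window was 82.7% identical and the ZNF43 window 77.7%. ZNF208 and ZNF43 held 2 CCAAT each and ZNF254 held 1, and none of the 3 held ATTGG. Of 35116 windows of this length in RefSeq, 32% held CCAAT or ATTGG and 3.63% held at least 2 CCAAT on the printed strand. The difference of ZNF208 was 4.62, that of ZNF254 0.14 and that of ZNF43 0.03. A link between these windows and the differences was not tested.

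Clusters without a single symbol held the largest difference on the array. Of the 504 called clusters, 403 carried 1 symbol, 60 more than 1 and 41 no symbol. The 5 largest differences without overlap among the last 2 kinds were singled out after their values were seen. Cluster 3856720, which carries 4 symbols of zinc finger genes, read 9.19 in NTERA2, 10.32 in 2102Ep and 10.23 in 833KE, and 1.52 to 2.65 (median 1.84) in the ES lines. It lay under the dim reference in every ES line and far above it in every EC line, with a difference of 8.0 ± 0.30 (SE; adjusted p = 1.75e-06), 255-fold. Of 19 alternative settings it passed in 18. On plastic it read 5.39 in NCCIT and from 10.94 to 11.48 in the other 4 EC lines. Cluster 3826803, also with 4 symbols, read 6.02 in NTERA2, 6.24 in 2102Ep and 5.94 in 833KE against 2.47 to 3.87 (median 3.23), a difference of 2.82 ± 0.28 (SE; adjusted p = 0.00182), and passed in 16 of 18 settings. Cluster 3872053, with 2 symbols, read 7.67 in NTERA2, 8.24 in 2102Ep and 7.48 in 833KE against 4.50 to 5.80 (median 4.69), a difference of 2.94 ± 0.29 (SE; adjusted p = 0.00182). Cluster 3403754, with none, differed by 3.10 ± 0.46 (SE; adjusted p = 0.0108), and cluster 3970024, with 2, differed by -3.48 ± 0.52 (SE; adjusted p = 0.0109). Which of the listed genes gave these signals cannot be told from the arrays.

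Genes of 12p made up the largest block of called genes. Of 217 measured genes of the short arm, 69 rose and 1 fell (32.3% called, against 2.81% of all genes). All EC lines lay above all ES lines at 107 of the 217, against 959 of all 14220 genes. Their median difference was 0.84, against 0.11 for the 567 genes of the long arm, of which 13 rose and 5 fell. Over the 100 brighter 12p genes, the median shift from the ES lines was 0.90 in NTERA2, 1.47 in 2102Ep and 1.24 in 833KE. No ES line lay outside -0.11 to 0.05, so all 3 EC lines stood clear, with NTERA2 the lowest. On plastic, the shift was 1.21, 1.62 and 1.28 in the same 3 lines and 1.51 in TERA1, but 0.43 in NCCIT. Beside GDF3 and PLBD1, the highest were ETFRF1, a mitochondrial regulator, at 2.52 ± 0.42 (SE; adjusted p = 0.0187), and CLEC4D, a C-type lectin of myeloid cells, at 2.48 ± 0.50 (SE; adjusted p = 0.0331). ETFRF1 read 8.62 in NTERA2, 9.84 in 2102Ep and 7.72 in 833KE against 5.53 to 6.71 (median 6.37), and CLEC4D read 4.52 in NTERA2, 7.45 in 2102Ep and 6.49 in 833KE against 3.38 to 3.92 (median 3.72). The phosphodiesterase PDE3A was the 1 gene that fell, from 5.28 to 6.84 (median 6.47) in ES to 4.15 in NTERA2, 4.78 in 2102Ep and 4.46 in 833KE, at -1.81 ± 0.34 (SE; adjusted p = 0.0267). The count of risen genes was 33 without 2102Ep and 43 without Shef3, 31 within the later codes and 0 within the earlier ones, while the median difference stayed between 0.69 and 1.10 in all 19 settings. Calls were lost in 7 of 9 fits (adjusted p up to 0.0932, without 2102Ep) without 1 array for CLEC4D and 6 of 9 fits (adjusted p up to 0.0667, without NTERA2) for PDE3A.

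Chromosome 13 showed the opposite direction. Of its 256 measured genes, 0 rose and 12 fell (4.69% called), and 39 had all EC lines below all ES lines against 3 above (median -0.22). Over all 14220 genes, 486 had EC below ES without overlap and 959 had EC above. The median shift of its 117 brighter genes was -0.25 in NTERA2, -0.85 in 2102Ep and -0.43 in 833KE, with the ES lines from -0.12 to 0.09. On plastic the shift was -0.02 in NTERA2, -0.81 in 2102Ep and -0.25 in 833KE, but -0.09 in NCCIT and 0.13 in TERA1, the last above every ES line. Among the genes that fell, beside EDNRB and FLT1, was FREM2, a basement membrane protein, at -2.45 (adjusted p = 0.00871). FREM2 read 5.40 in NTERA2, 5.92 in 2102Ep and 4.41 in 833KE in EC, and in the ES lines 6.98 at the lowest and 8.35 at the highest. TSC22D1, a TGF-beta-stimulated regulator, fell at -1.39 (adjusted p = 0.0058), and the forkhead factor FOXO1 at -0.88 (adjusted p = 0.0408). The number that fell was 4 without 2102Ep, 4 without 833KE, 4 without Shef3, 5 without Shef6, 6 without Shef7 and 25 without NTERA2, and 0 within the earlier codes.

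On 1p, 40 of 769 genes rose and 2 fell (5.46% called; median 0.22), and the 3 EC lines were shifted by 0.27, 0.20 and 0.17, where the ES lines reached 0.15. The count of risen 1p genes was 11 without 2102Ep, 11 without Shef3, 17 without Shef6 and 17 without Shef7, 11 within the later codes and 0 within the earlier ones. On 1q the shift was 0.56 in NTERA2 but 0.16 and 0.08 in 2102Ep and 833KE. Chromosome 14 was shifted by -0.39, -0.24 and -0.30 in NTERA2, 2102Ep and 833KE, below every ES line, and 6 of its 459 genes fell and 1 rose (1.53% called, a share below that of all genes). The number that fell was 2 without 833KE, 3 without Shef3, 10 without NTERA2 and 10 without Shef5. Chromosome 18 was shifted by -0.43, -0.29 and -0.55, with ES line Shef5 at -0.25. The arrays read RNA, and DNA copy number was not analysed here.

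**Figure D4:**
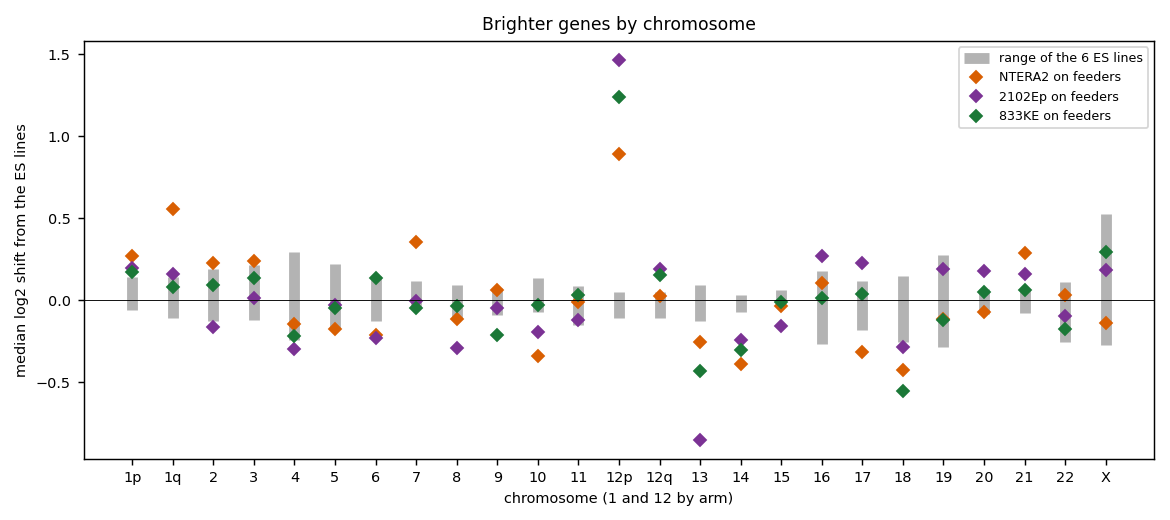
Median log2 shift of the brighter genes of each chromosome (chromosomes 1 and 12 by arm) from the mean of the ES lines, for the 3 EC lines on feeders (diamonds), with the range of the 6 ES lines as a grey bar. The 3 EC lines lie between 0.90 and 1.47 at 12p, and between -0.85 and -0.25 at chromosome 13.

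The 3 EC lines also differed from each other. Genes at least 2-fold above all 8 other arrays numbered 122 in NTERA2, 91 in 2102Ep and 39 in 833KE, and genes 2-fold below all others 54, 10 and 74. In the ES lines these counts ran from 0 to 23 and from 1 to 16. The following genes were chosen for their gap to the nearest other array, so their values are a description and were not tested. MX2, an interferon-induced GTPase, read 8.97 in NTERA2, where the others read 4.16 to 5.43, and it read 8.32 in NTERA2 on plastic. PIWIL2, a partner of piRNAs, read 9.40 in NTERA2 and 7.08 in 833KE, but 3.76 to 4.09 in the other 7 arrays. The ubiquitin ligase gene OBI1, on chromosome 13, read 3.01 in NTERA2 against 7.08 to 9.46, and EID1, an inhibitor of differentiation, 4.95 against 8.44 to 9.23. On plastic OBI1 and EID1 were as low in NTERA2, at 3.64 and 4.46.

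In 2102Ep the G protein regulator RGS4 read 8.65 and the glutamate decarboxylase GAD2 7.46, above all others on feeders, which reached 6.10 and 5.03. SERPINB9, an inhibitor of granzyme B, was lowest in 2102Ep at 7.49, where the others read 9.32 to 11.07. On plastic 2102Ep read 11.17 for RGS4, 7.955 for GAD2 and 7.20 for SERPINB9. Other EC lines on plastic shared these levels in part. TERA1 read 10.26 for RGS4 and 6.40 for GAD2, 833KE 6.17 for GAD2, and NTERA2 7.60 for SERPINB9. The remaining EC lines on plastic read at most 6.66 for RGS4 and 5.45 for GAD2, and at least 11.47 for SERPINB9. In 833KE the germline gene RBM46 read 7.65 against 2.45 to 4.45, and TDRD1, of the piRNA pathway, 7.49 against 3.28 to 4.93. HCAR1, the lactate receptor, read 7.26 where the others on feeders reached 3.55. On plastic, TERA1 read 7.38 for TDRD1 and 7.72 for HCAR1, near 833KE at 7.74 and 8.28. The other EC lines on plastic read at most 5.60 and 4.41. RBM46 read 6.26 in 833KE on plastic and at most 4.12 in the other EC lines there. SMCHD1, a silencer of the inactive X chromosome, read 5.64 in 833KE against 7.44 to 8.32, and 5.83 on plastic. The histone gene H2AC12 read 5.94 in 833KE on feeders but 9.79 on plastic, so that value was not shared by both cultures of the line.

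**Figure D5:**
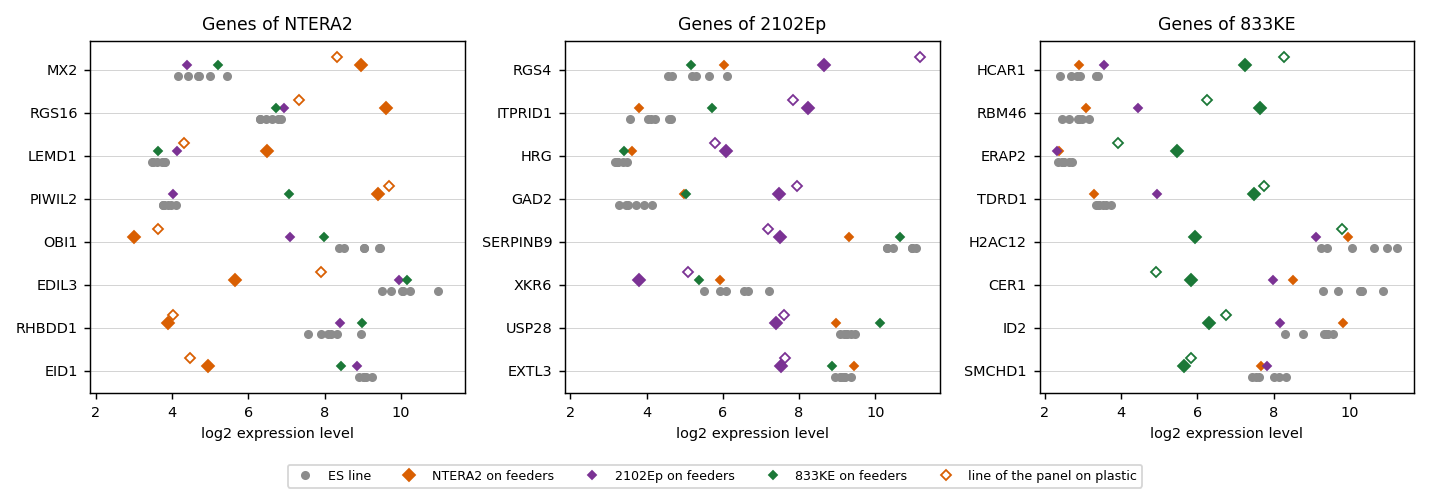
Log2 levels of the 4 genes furthest above and the 4 furthest below all other arrays in each EC line on feeders; grey circles are the ES lines, filled diamonds the EC lines on feeders and open diamonds the line of the panel on plastic. Most open diamonds lie near the filled one of the same line, as for OBI1 at 3.64 and 3.01. H2AC12 lies furthest apart, at 9.79 and 5.94. RGS16 (7.32 and 9.63), LEMD1 (4.32 and 6.48), EDIL3 (7.92 and 5.64) and RGS4 (11.17 and 8.65) are also well apart.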

How the data were processed

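RNA of 9 line cultures (3 EC and 6 ES lines on feeders) was compared at gene level, with exon probesets of the same arrays read beside it. The deposited values are log2 expression values. RMA, Affymetrix Expression Console and limma were used by the authors, per the submitters' processing notes, without versions; the settings, log base and genome build are not given in the sources used here, and a log2 scale was taken from how far the values reach. The number of arrays limits the precision, and no detection p-value was used.

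Groups were compared with limma 3.58.1 (lmFit, then eBayes; two-sided, without covariates) under R 4.3.3, with Benjamini-Hochberg adjustment over all 22011 clusters or 287329 probesets and a threshold of 0.05. No cluster was filtered out and nothing was renormalised. Replicates are lines, and no label ties lines into pairs. Alternatives were quantile normalisation, median centring, leaving out clusters under the 25th percentile, an intensity trend (plain and robust), array weights, the array code as a block or within each range of codes, the spread of all 14 arrays, and each array left out in turn. On data simulated for this comparison with 22011 clusters, limma recovered 28 of 50 changes of 1 on the log2 scale, 46 of 50 of 2, 48 of 50 of 3 and 50 of 50 of 4, with 11 false calls.

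Symbols came from the platform annotation, updated through RefSeq; 14432 clusters had 1 symbol, 2408 several and 5171 none, and genes were named only from 1 symbol. Genes were named where they passed, had no overlap between groups and ranked among the 12 differences furthest above or below 0, and for each list up to 4 called genes in each direction, or the 2 with the smallest p. Gene lists and the comparison were chosen with earlier results of these data known. The 4 lists of the closing section, the split of chromosome 1 by arm, the shifts of single arrays by chromosome and the clusters given by number were chosen after seeing the data. Brighter genes are those above the median of all genes, and a chromosome's shift is the median over them of an array's value minus the ES mean. Promoter windows were aligned with Biopython 1.88, and figures drawn with matplotlib 3.10.9.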

Additional observations from a re-analysis of the deposited data

Results flagged for a closer look

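In 3 of 81 named genes, 1 ES line lay far from the other 5; chance gives about 1 in 20 such groups. ULBP1 was lowest in Shef3 at 2.86, where the other ES lines read 5.34 to 6.15. CCND2 was lowest in Shef5 at 9.40, where the others read 10.24 to 10.57. STMN2 was highest in H9 at 6.99, where the others read 5.08 to 5.71.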

How the results depend on the processing

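Of 67 named genes called, 16 kept their call in every alternative but the 4 arrays of earlier code, where limma called 0 clusters (2366 at an unadjusted p below 0.05). With 1 array left out in turn, 20 of the 67 kept every call, and 16 lost it in 6 or more of 9 fits. Of 1267 values of these genes under alternatives, 918 kept direction and call, 349 lost the call and 0 changed direction. Leaving out 1 array moved the calls between 167 and 594 clusters and between 802 and 3793 probesets, against 504 and 2739. With the spread taken from all 14 arrays, 306 clusters passed. Of 589 values of list medians, 30 in 12 lists changed sign. Detection was not scored, so values under 4.96 have no known signal above background.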

Other observations

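Some genes of the amino acid stress response read higher in EC lines than in ES lines, both on feeders. The lists in this section were drawn up after the called genes had been seen, so their counts are descriptions. Of 18 cytosolic aminoacyl-tRNA synthetases, which load amino acids onto tRNAs, 6 rose and 0 fell (median difference 0.52, against 0.05 over all genes). SARS1, for serine, read 10.90 in NTERA2, 11.58 in 2102Ep and 11.78 in 833KE against 10.00 to 10.57 (median 10.11), a difference of 1.25 ± 0.21 (SE; adjusted p = 0.0196). WARS1, for tryptophan, differed by 1.33 ± 0.25 (SE; adjusted p = 0.0277). On plastic, the EC lines averaged 10.73 for SARS1 and 10.05 for WARS1, against ES means of 10.18 and 9.42. That average covered unlike lines. NTERA2 read 10.18 and 8.32 on plastic and TERA1 9.69 and 9.92, while the other EC lines read at least 10.97 and 10.36. AARS1, CARS1, MARS1 and YARS1, also called, averaged 10.70, 7.82, 10.09 and 9.91 on plastic. Their ES means were 10.57, 7.93, 10.18 and 10.01. Of 27 other genes of this response, the factor ATF4 and genes listed as its targets, 7 rose and 0 fell (median 0.63). ATF4 itself did not pass, and read lower in every EC line, 7.50 in NTERA2, 7.67 in 2102Ep and 7.94 in 833KE against 8.07 to 8.83 in ES, a difference of -0.72 (adjusted p = 0.0836). The cystine transporter gene SLC7A11 differed by -0.35 and CHAC1 by -0.01, neither called. The stress factor gene DDIT3 read 6.12 in NTERA2, 7.46 in 2102Ep and 6.41 in 833KE against 4.17 to 5.65 (median 4.53), at 1.96 ± 0.36 (SE; adjusted p = 0.0249). The amino acid transporter SLC1A4 read 7.54 in NTERA2, 7.25 in 2102Ep and 6.36 in 833KE against a narrow 5.23 to 5.47 (median 5.31), at 1.72 ± 0.23 (SE; adjusted p = 0.00701). SHMT2, of mitochondrial serine metabolism, differed by 1.27 ± 0.21 (SE; adjusted p = 0.0187). DDIT3, SLC1A4 and SHMT2 averaged 6.24, 6.38 and 10.59 in the EC lines on plastic, against ES means of 4.70, 5.33 and 10.34. The synthetase count was 0 without 2102Ep, 0 without 833KE, 0 without Shef3 and 2 without Shef6, without H9 or without Shef7, 3 with the array code as a block, and 0 within either range of codes. The count of the other genes was 2 without 2102Ep, 3 without Shef3, 3 without Shef7 and 4 without Shef6, 1 within the later codes and 0 within the earlier ones, while both medians stayed above 0 in all settings.

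Some glypicans and synaptic genes fell in EC lines, while the neural marker list had 0 of 14 called. Of 5 glypicans, heparan sulphate proteoglycans that bind growth factors, 3 fell (median -1.36). GPC4 read 9.82 in NTERA2, 9.30 in 2102Ep and 10.49 in 833KE against 11.03 to 11.53 (median 11.21), at -1.36 ± 0.24 (SE; adjusted p = 0.021). GPC6, on chromosome 13, read 7.89 in NTERA2, 6.90 in 2102Ep and 7.20 in 833KE against 8.30 to 10.04 (median 9.23), at -1.86 ± 0.35 (SE; adjusted p = 0.0276), and GPC3 differed by -2.27 ± 0.51 (SE; adjusted p = 0.049). GPC3 and GPC4 both lie on the X chromosome. GPC2 and GPC5 did not pass and differed by only -0.135 and -0.168. The glypican count was 0 without Shef6 or Shef3 and 1 without 2102Ep, Shef7 or 833KE, with 1 within the later codes and 0 within the earlier ones. Of 28 synaptic and axonal genes 14 fell and 0 rose (median -1.14), and 7 had a difference above 0. SEMA6D, a guidance cue, read 4.50 in NTERA2, 4.46 in 2102Ep and 4.33 in 833KE against 5.94 to 8.0 (median 7.17), at -2.60 ± 0.40 (SE; adjusted p = 0.0116). NLGN3, a synaptic adhesion protein, read 5.52 in NTERA2, 5.67 in 2102Ep and 5.24 in 833KE against 6.41 to 6.92 (median 6.68), at -1.18 ± 0.16 (SE; adjusted p = 0.00759). RAB3C, of synaptic vesicles, differed by -2.52 ± 0.38 (SE; adjusted p = 0.0109). That count was 4 without 2102Ep or 833KE, 5 without Shef3, 6 without Shef6 and 8 without H9 or Shef7, and 0 within the earlier codes, and the median stayed between -1.42 and -0.63 in all settings.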
